A study of Gallus gallus with 31 samples.

Results

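The change in anterior pituitary gene expression between 5 and 7 weeks of age was followed in male chickens of a high growth (HG) line and a low growth (LG) line, selected in opposite directions for body weight at 8 weeks. All arrays of these ages were used, 4 of HG birds and 4 of LG birds at week 5 and as many again at week 7, which makes 16 of the 31 arrays in the series. Each array carried the amplified RNA of 1 bird, labelled with Cy3, against Cy5-labelled RNA pooled from all birds, on a spotted chicken cDNA array of 19200 spots. The dyes were not swapped, so a dye effect of a spot was shared by every array and cancels in differences between birds. Birds of the lines were kept apart until 3 weeks of age and were mixed after that, so at both ages used here the lines shared their rearing. No bird was sampled at more than 1 age, and the lines differ in the many loci that selection and drift may have moved, so each line stands for its own selected population only. A value below is the log2 ratio of a bird to the pool, and a step is the mean of the 4 birds at week 7 minus the mean of the 4 birds at week 5.

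The anterior pituitary secretes growth hormone, prolactin, thyrotropin, the gonadotropins and the products of proopiomelanocortin, each mostly from its own kind of cell. After hatching the gland grows by division of its cells while these cell types fill out, and cell division slows as the bird matures. The gland is also richly supplied with blood, and the red cells of birds keep a nucleus and hold RNA. In RNA of a whole gland, fewer cells of a type and less RNA per cell cannot be told apart.

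On the 16 arrays 15215 to 18342 of the 19200 spots had a good flag, and the median Cy3 signal was 3.07 to 6.28 times the local background. Of the hormone spots, Cy3 was at 25.6 to 153 times background for GH (spot 7.1.6), 55.7 to 112 times for PRL and 38.9 to 118 times for CGA, the subunit shared by the glycoprotein hormones. TSHB ranged from 11.6 to 59 times, LOC420294 from 3.28 to 123, LHB from 2.4 to 52.3 and FSHB from 1.51 to 84.6. The dimmest were POMC, at 1.33 to 13.8 and 1.87 to 6.73 times at its 2 spots, and GH spot 43.6.11, at 1.59 to 3.38 times. GH spot 7.1.6 had a good flag on 14 of the 16 arrays, and PRL and CGA on 13 each. Tests were run on spots with a value on 16 or more of the 31 arrays and on 3 or more of the 4 arrays of each group at weeks 5 and 7, which left 15033 spots, 8992 of them named. The tests were moderated tests of limma over 8 group means. Their p was adjusted for the 15033 spots after Benjamini and Hochberg, and a spot passed with an adjusted p under 0.05. P-values rest on the spread within groups, pooled over the 8 groups and moderated across spots. With 1 array per bird, this spread holds differences between birds and between arrays together. It also holds the structure by replicate number described at the end. The median standard error (SE) of a step was 0.194 in HG and 0.193 in LG.

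Few spots passed. For the mean of both lines 1 spot passed, which is 0.00665% of those tested, and it was the mitotic kinase gene PBK, lower at week 7, with 471 spots at an unadjusted p under 0.05 (3.13%). In LG 14 spots passed (0.0931%), 12 of them lower at week 7 and 2 higher, with 612 at an unadjusted p under 0.05 (4.07%). In HG 0 spots passed by limma (0%), with 347 at an unadjusted p under 0.05 (2.31%). With its p adjusted in the same way, the unmoderated model of line and age that the study's methods name also gave 0. The study itself used an unadjusted p with a bound of 1.6-fold. For the difference between the HG step and the LG step 0 spots passed by limma (0%), with 404 at an unadjusted p under 0.05 (2.69%) and 0 by the unmoderated model with adjusted p. A spot was to count as moving in a single line only where that difference passed, so no gene is placed in a single line by these data, and the LG calls below are calls of LG alone.

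Over the array as a whole the measured steps of the lines were nearly unrelated. Across the 15033 spots the HG step and the LG step had a Pearson r of 0.0288 and a Spearman rho of 0.0173, and 49.9% of spots had the same sign in both. The step was below 0 at 49.1% of spots in HG, at 48.8% in LG and at 49.3% for the mean of both lines. The birds behind these steps differ, the pool is shared, and spots are not independent replicates, so these are descriptions. The SD of the steps over all spots was 0.22 in HG and 0.25 in LG, and the median SE of a step was 0.194 and 0.193. With an SE so near the SD, an r near 0 cannot show whether the lines changed alike. Steps of at least 0.68 (1.6-fold, the size used in the study's methods) were measured in HG upwards at 89 spots and downwards at 116, and in LG at 116 and 146. In HG 98.6% of spots and in LG 98.3% lay within that bound.

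**Figure D1:**
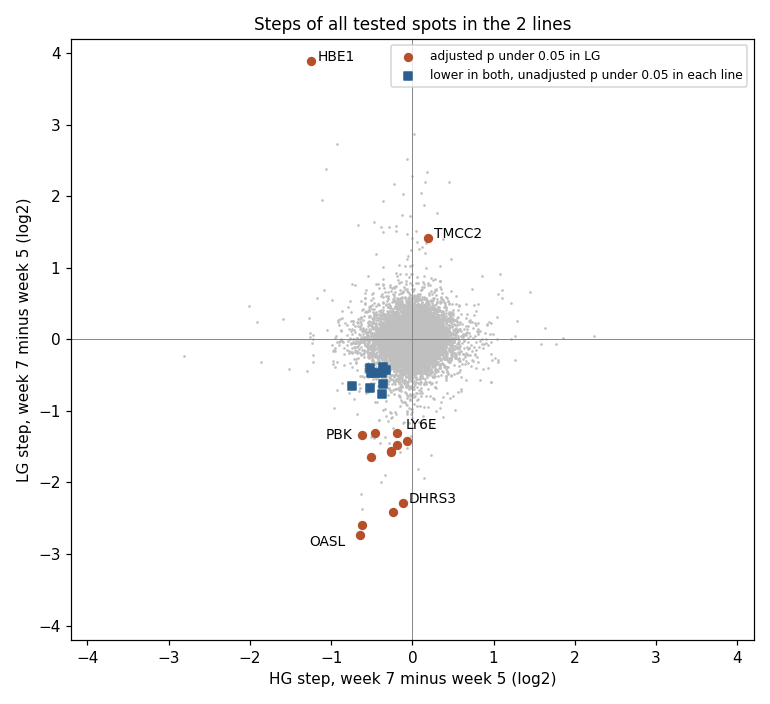
Step from week 5 to week 7 of each tested spot, in HG on the horizontal axis and in LG on the vertical axis (log2 scale, equal axes); circles mark the 14 spots that passed adjusted p in LG and squares the spots lower in both lines at an unadjusted p under 0.05 in each. The cloud has no slope, the LG calls reach 3.89 up at HBE1 and down to -2.73 at OASL with HG steps near or below 0, and PBK is lower on both axes.

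Among cell division genes PBK passed, lower at week 7 in the mean of both lines and in LG. PBK encodes a kinase active in dividing cells. In HG its values were -0.67, -0.33, -0.15 and -0.23 at week 5 and -0.77, -0.998, -1.27 and -0.80 at week 7. In LG they were -0.24, 0.03, -0.05 and 0.68 at week 5 and -1.04, -1.26, -0.93 and -1.71 at week 7. Every bird of week 7 lay below every bird of week 5 in its own line, and across the lines the ages overlapped by no bird either. PBK fell by 0.98 in the mean of both lines (SE 0.14, limma adjusted p = 0.00186) and by 1.34 in LG (SE 0.19, adjusted p = 0.00325), while its HG step was -0.62 (SE 0.19, unadjusted p = 0.00386, adjusted p = 0.9999). The HG step minus the LG step was 0.72 (SE 0.28, unadjusted p = 0.0139, adjusted p = 0.9999). At weeks 1 and 3 the group means had been 0.66 and 0.22 in HG and 0.59 and 0.29 in LG, so the value at week 7 was the lowest of the 4 ages in each line. The call for the mean of both lines was lost when only the 16 arrays of weeks 5 and 7 were fitted (adjusted p = 0.0858), and the LG step was -0.88 in the authors' own normalized values.

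The genes next to PBK by p included several that act in the cell cycle, none of which passed adjusted p in the mean of both lines. CCNB1 encodes cyclin B1, which drives entry into mitosis. It read -0.44, 0.36, 0.01 and -0.11 in HG at week 5 against -0.50, -0.54, -0.63 and -0.62 at week 7, and -0.21, -0.30, 0.01 and 0.41 in LG at week 5 against -0.70, -0.75, -0.67 and -0.67 at week 7. The ages did not overlap in either line, the 8 birds of week 7 lay within a narrow band, and the mean step was -0.60 (SE 0.12, adjusted p = 0.242). STMN1 encodes stathmin, which destabilizes microtubules and is high in dividing cells. Its spot 48.8.16 read -0.14, 0.26, 0.15 and -0.09 in HG and -0.17, -0.21, 0.10 and 0.45 in LG at week 5, and -0.20, -0.47, -0.33 and -0.33 and then -0.59, -1.07, -0.31 and -0.91 at week 7. The birds of week 7 again lay below those of week 5 in each line, with a mean step of -0.57 (SE 0.13, adjusted p = 0.284), and the second STMN1 spot had a mean step of -0.55 (SE 0.14, adjusted p = 0.34). RRM2, a subunit of the ribonucleotide reductase that supplies DNA synthesis, had a mean step of -0.94 (SE 0.20, adjusted p = 0.242) and an LG step of -1.36 (adjusted p = 0.0551). In HG at week 7 its values were 0.06, -1.02, -1.17 and -0.97, and without the bird at 0.06, HG week 7 replicate 1, RRM2 passed for the mean of both lines (adjusted p = 0.0454). That bird was singled out after its value was seen. Without any other single array of weeks 5 and 7 the limma adjusted p of RRM2 lay between 0.0842 and 0.717.

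At an unadjusted p under 0.05 in each line separately, 11 spots were lower in both (0.0732% of spots tested), 0 were higher in both (0%) and 9 had opposite signs (0.0599%). The 11 are given by value and not as calls. They held PBK, CCNB1 and STMN1, and also SMC2 (mean step -0.49, SE 0.13), a subunit of the condensin that compacts chromosomes, MCM2 (-0.42, SE 0.12, spot 28.8.1), a subunit of the helicase that opens DNA for replication, and KNTC1 (-0.46, SE 0.12), a kinetochore protein of the spindle checkpoint. The others were SLC7A5 (-0.70, SE 0.18), a transporter of large neutral amino acids, ABCC3 (-0.37, SE 0.11), an efflux pump, RNF5 (-0.37, SE 0.12), a ubiquitin ligase, and 2 unnamed spots, 28.1.13 and 26.17.11. At this MCM2 spot the HG birds of week 7 lay between -0.57 and -0.52, below the -0.33 to -0.07 of week 5, while the LG ages overlapped by 1 bird. The other MCM2 spot, 16.19.6, had steps of 0.68 in HG and -0.04 in LG (mean step 0.32, SE 0.42). At SLC7A5 the ages did not overlap in HG, with 0.09 to 0.59 at week 5 and -0.65 to -0.36 at week 7, and in LG the highest bird of week 7, at -0.20, lay just above the lowest of week 5, at -0.24. In both lines at once all birds of week 7 lay below all birds of week 5 at 5 spots (0.0333% of those tested) and above them at 1 (0.00665%).

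**Figure D2:**
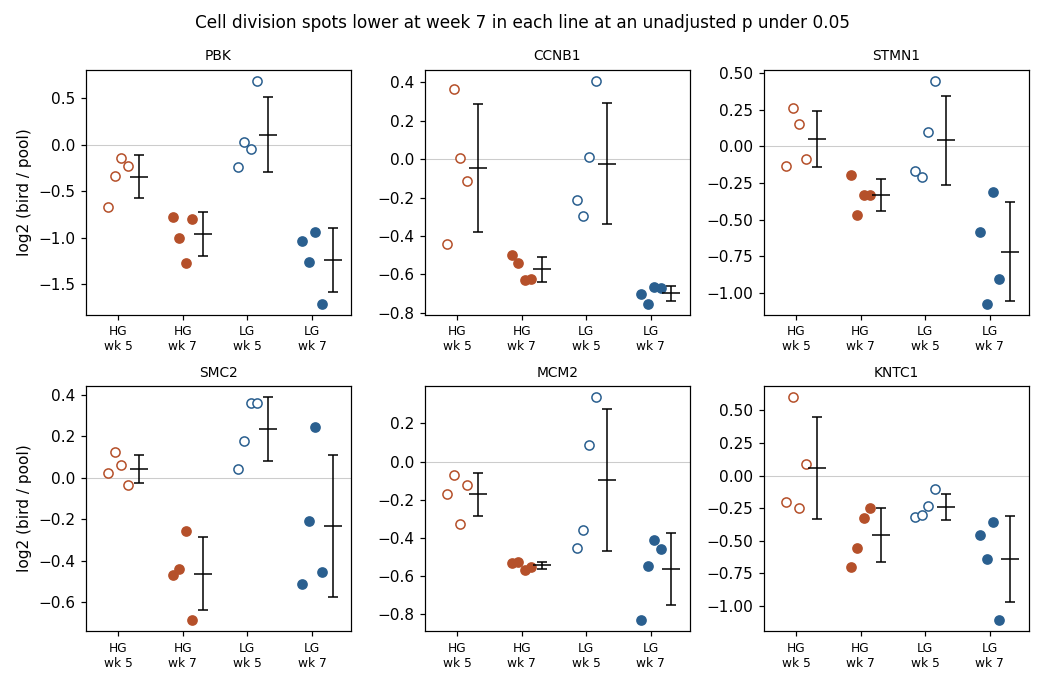
Log2 ratio of bird to pool at 6 cell division spots (STMN1 is spot 48.8.16), 1 point per bird, open at week 5 and filled at week 7, HG in orange and LG in blue, with the mean and SD of the birds beside each group; each panel has its own scale. At PBK, CCNB1 and STMN1 no bird of week 7 reaches a bird of week 5 of its line, and at SMC2 an LG bird of week 7 lies within the range of week 5.

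The list of cell division and DNA replication genes held 49 tested spots of 36 genes. At an unadjusted p under 0.05 the mean of both lines was lower at 10 of them and higher at 0, against 1.92% and 1.22% of all spots. In HG 7 were lower and 0 higher, against 1.36% and 0.951%, and in LG 12 were lower and 1 higher, against 2.43% and 1.64%. After adjustment 1 of the 49, PBK, passed in LG. The median step of the list was -0.06 in HG and -0.16 in LG, with medians over all spots of 0.00 and 0.01. The members past an unadjusted p in a line and not yet named were KPNA2, a nuclear import receptor (LG steps -0.60 and -0.04 at its 2 spots), SMC4, a condensin subunit (LG step -0.56, HG step 0.10), KIF20A, a kinesin of cell division (LG step -0.39), MCM6, of the same helicase as MCM2 (LG step -0.36), CCNA2, cyclin A2 (HG step -0.72, LG step -0.10), PCNA, the sliding clamp of DNA polymerase, whose 2 spots had LG steps of -0.38 and 0.26, and TOP2A. Across the 49 spots the HG step and the LG step had a Pearson r of 0.316 and a Spearman rho of 0.327, and 65.3% had the same sign, given as a description. Averaged over the 29 members present on all 16 arrays, the HG birds lay between -0.14 and -0.00 at week 5 and between -0.28 and -0.16 at week 7, and the LG birds between -0.15 and 0.09 and then between -0.43 and -0.24, with no overlap of ages in either line. The HG count rested in part on single birds, since it was 3 without HG week 7 replicate 4, and the median HG step ranged from -0.14 to -0.03 when each array was left out.

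TOP2A, the topoisomerase that untangles sister chromosomes, differed between its spots. Its spot 27.9.5 had a step of -0.74 in HG and 0.77 in LG, with a difference of -1.51 that did not pass (adjusted p = 0.9999), and its spot 22.15.10 had steps of -0.23 and -0.03. At spot 27.9.5 the LG birds of week 7 read 0.04, -1.12, 0.91 and 0.01. Replicate 2 was the lowest of them, as at the globin spots described below, and a link to the globin signal was not tested. The spots of a gene can hold different clones, and a long cDNA can also bind transcripts of related genes, so no TOP2A direction is given.

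No named spot passed upwards in the mean of both lines, where 183 spots (1.22%) were higher at an unadjusted p under 0.05. The 15 with the smallest p had mean steps of 0.36 to 1.32. The 1.32 was at HBE1, where the steps had opposite signs, 3.89 in LG and -1.25 in HG. CHGB encodes chromogranin B, a protein of the granules that store hormones. It read 0.07, 0.33, 0.14 and -0.07 in HG at week 5 and 0.52, 0.53, -0.21 and 1.11 at week 7, and -0.20, -0.53, -0.31 and -0.28 in LG at week 5 and 0.37, 2.76, 0.48 and 0.65 at week 7. The LG ages did not overlap, the bird at 2.76 stood far above the rest, and the mean step was 0.88 (SE 0.26, adjusted p = 0.818). CHGA, chromogranin A, had a mean step of -0.21 (SE 0.18).

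The other spots of the 15 were of genes with varied roles, and none passed. CHKA, choline kinase alpha, had a mean step of 0.36 (SE 0.10, adjusted p = 0.599), with LG birds at -0.23 to 0.27 at week 5 and 0.29 to 0.63 at week 7. LDHA, which turns pyruvate into lactate, had 0.38 (SE 0.12), PGM1, phosphoglucomutase, 0.47 (SE 0.17), and STBD1, a glycogen-binding protein, 0.36 (SE 0.12). TXNDC5, a disulfide isomerase of the endoplasmic reticulum, had 0.48 (SE 0.16), while its other 2 spots had 0.12 and -0.18. CFD, complement factor D, had 0.43 (SE 0.13), and its other 2 spots went the same way at 0.34 and 0.26. CHTOP, a factor of mRNA export, had 0.68 (SE 0.21), HRAS, a small GTPase, 0.52 (SE 0.16), ENAH, an actin regulator, 0.58 (SE 0.19), PCYOX1, a prenylcysteine oxidase, 0.50 (SE 0.17), and TMEM237, a protein of the ciliary transition zone, 0.48 (SE 0.16). The other spots of HRAS, ENAH and TMEM237 had mean steps of -0.02, of -0.05 and 0.03, and of -0.05, so these genes were not higher at each of their spots.

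The 3 largest falls among the LG calls were at 3 spots of OASL, one of the antiviral genes that interferon induces in infected or alerted cells. OASL belongs to the oligoadenylate synthetase family, which senses viral double-stranded RNA, and the study's gene list calls the same spots OAS3. At spot 42.13.20 the LG birds read -0.26, -0.18, 2.201 and 0.91 at week 5 and -1.38, -2.11, -1.47 and -2.75 at week 7, and the HG birds -2.19, -1.96, -1.41 and -1.05 at week 5 and -1.91, -2.58, -1.47 and -3.16 at week 7. The LG birds of week 5 stood above all other birds of these ages, those of week 7 lay within the HG range, and the HG ages overlapped. OASL fell in LG, with steps of -2.59 at this spot (SE 0.52), -2.73 at spot 40.9.1 (SE 0.55) and -2.42 at spot 22.1.9 (SE 0.47), each with a limma adjusted p of 0.037, with HG steps of -0.62, -0.65 and -0.24. The LG means at weeks 1 and 3 had been -0.19 and -0.53 at spot 42.13.20, and those of HG 0.39 and 0.56. A spot that the platform names DRG2 and the study OAS3 behaved alike, with an LG step of -2.37 (adjusted p = 0.058), and 2 further OASL spots had LG steps of 0.21 and -0.00.

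LY6E, an interferon-induced protein of the cell surface, read 0.36, 1.05, 1.20 and 1.67 in LG at week 5 and -0.39, -0.29, -0.34 and 0.08 at week 7 (spot 30.2.2). The HG birds read -0.69, -1.04, 0.27 and -0.19 and then -0.52, -0.81, -0.16 and -0.91. The LG ages did not overlap, the HG ages did, and LY6E fell by 1.30 in LG (SE 0.26, adjusted p = 0.037) with an HG step of -0.19. Its spot 1.9.4 had an LG step of -1.36 (adjusted p = 0.285) and its spot 43.10.15 one of -0.11. ZNFX1, a helicase that senses foreign RNA, had an LG step of -1.38 (adjusted p = 0.0743), and ADAR, which edits double-stranded RNA, one of -0.76 (adjusted p = 0.0783) with 0.22 at its other spot. The 3 spots of USP41, a ubiquitin protease gene, had LG steps of -0.87, -1.02 and -0.76. MX1, a GTPase that blocks influenza viruses in other species, had one of 0.05, and IFIH1, a sensor of long double-stranded RNA, 0.30 and -0.15 at its 2 spots, so the fall did not extend to every antiviral gene on the array.

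The interferon response list held 33 tested spots of 19 genes, several of them repeated spots of the same gene. The spot that the platform names DRG2 joined it by its name in the study's gene list. That list was picked for differences between the lines on these same arrays. The counts below, set beside shares of all spots, are therefore descriptions. In LG 15 of the 33 were lower and 0 higher at an unadjusted p under 0.05, against 2.43% and 1.64% of all spots, and 4 passed after adjustment, the 3 OASL spots and LY6E. In HG 0 were lower and 0 higher, against 1.36% and 0.951%, though 24 of the 33 steps were below 0. Across the 33 spots, which share arrays and in part genes, the HG and LG steps had a Pearson r of 0.813 and a Spearman rho of 0.766, and 75.8% had the same sign. The median step was -0.42 in LG and -0.10 in HG, and all LG birds of week 7 lay below all LG birds of week 5 at 13 of the 33 spots (1.66% of all spots) and at 0 in HG (0.971%). The HG step minus the LG step was positive at 8 spots and negative at 0 at an unadjusted p under 0.05, against 1.44% and 1.25%, with none past adjustment. Averaged over the 25 members present on all 16 arrays, the LG birds read 0.21, 0.20, 0.74 and 0.56 at week 5 and -0.13, -0.41, -0.20 and -0.35 at week 7. The HG birds lay between -0.26 and -0.11 at week 5 and between -0.46 and -0.20 at week 7, so the 4 LG birds of week 5 were the ones that stood apart, replicates 3 and 4 most of all. When each array was left out, the LG count ran from 12, without LG week 5 replicate 3, to 17, and the median LG step from -0.59 to -0.28.

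**Figure D3:**
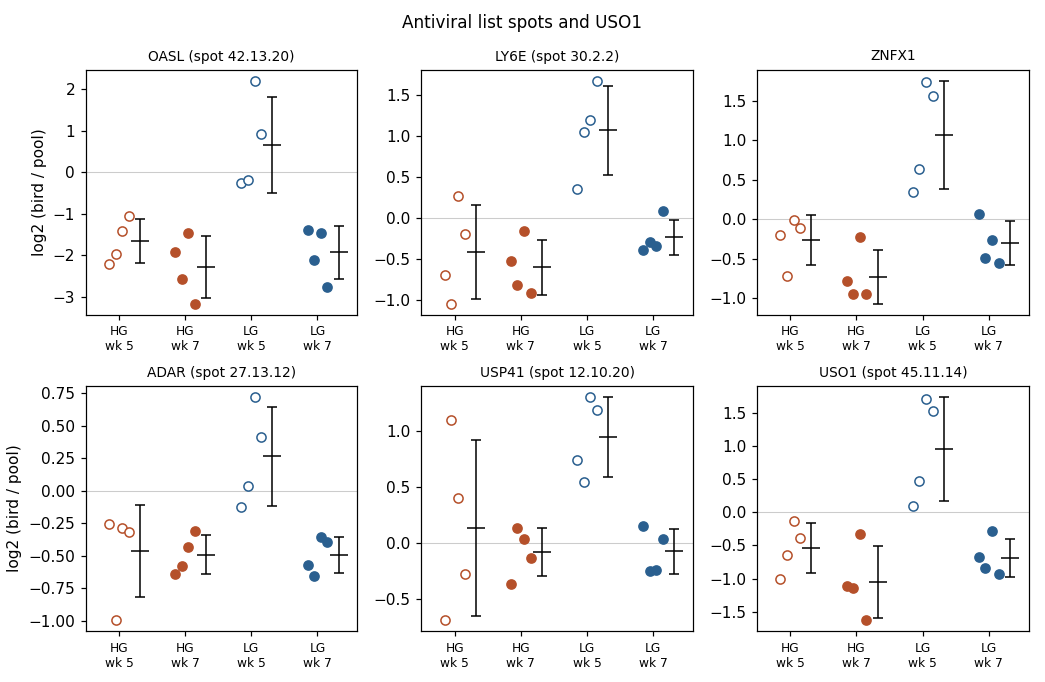
Log2 ratio of bird to pool at 5 antiviral spots and at USO1, 1 point per bird, open at week 5 and filled at week 7, HG in orange and LG in blue, with the mean and SD of the birds beside each group; each panel has its own scale. The LG birds of week 5 lie highest on average in each panel, and at OASL they range from -0.26 to 2.201 while all other birds are at -1.05 or lower.

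Most spots of class I antigen presentation genes were also lower in LG at week 7, by less and without passing. This list shares TAP1 and TAP2, the subunits of the peptide transporter, with the interferon list (LG steps -0.10 and -0.37). Of 25 spots of 7 genes, 7 were lower and 0 higher in LG at an unadjusted p under 0.05, against 2.43% and 1.64% of all spots, with a median step of -0.25 in LG and -0.05 in HG and none past adjustment. All LG birds of week 7 lay below all LG birds of week 5 at 1 of the 25 spots (1.66% of all spots). Averaged over the 20 members present on all 16 arrays, the LG birds read -0.03, 0.25, 0.52 and 0.76 at week 5. At week 7 they read -0.08, 0.26, 0.04 and 0.07, so the ages overlapped. TAPBP, the chaperone tapasin, had LG steps of -0.88 and -0.81 at 2 spots and 0.19 and 0.16 at the others, ERAP1, a peptidase that trims peptides, had -0.68 and -0.45, and the B2M spots, of the light chain, ran from -0.38 to 0.01. The heavy chain spots were mixed, with LG steps from -0.45 to -0.34 at BF1 and from -0.69 to 0.26 at BF2.

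The other LG falls were at genes without a place on these lists. USO1, a tether of vesicles at the Golgi, read 0.10, 0.48, 1.71 and 1.53 in LG at week 5 and -0.68, -0.84, -0.29 and -0.94 at week 7 at spot 45.11.14, with HG birds between -1.01 and -0.12 and then between -1.62 and -0.32. USO1 fell, with LG steps of -1.64 at this spot and -1.47 at spot 29.2.1 (SE 0.33 and 0.29, adjusted p = 0.037 for each). HECA, the homologue of the fly gene headcase, fell too, with LG steps of -1.42 at spot 13.6.19 (SE 0.28, adjusted p = 0.037) and -1.31 at spot 17.3.7 (SE 0.26, adjusted p = 0.0391), and LOC422513, HERC4 in the study's list, fell by 1.56 (SE 0.31, adjusted p = 0.037). In each of these spots the LG birds of week 5 lay above all LG birds of week 7, with the lowest of them at replicate 1 where that bird was measured. DHRS3, a reductase that turns retinal into retinol, fell by 2.29 in LG at spot 28.12.7 (SE 0.44, adjusted p = 0.037), where LG birds of week 5 read -0.12, 1.99 and 0.63, with replicate 2 missing, and those of week 7 -1.27, -1.81, -1.12 and -1.59. Its spots 10.1.19 and 13.9.9 had LG steps of -0.10 and -0.07, so the fall belonged to 1 of the 3 DHRS3 spots. The unnamed spot 46.7.11 fell by 1.57 (SE 0.31, adjusted p = 0.037). LG birds of week 5 had stood out at most of these spots, and OASL, LY6E, USO1, HECA and DHRS3 had HG steps between -0.65 and -0.07.

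Most of these LG calls lay near the threshold and were lost in most fits without a single LG bird. The steps moved less: at LOC422513 the LG step stayed between -1.84 and -1.34 in these fits. PBK was the 1 LG call left when replicate 2 or 4 of LG week 5 or replicate 3 of LG week 7 was dropped. There were 2 calls when replicate 3 of LG week 5 or replicate 1 or 4 of LG week 7 was dropped, and 6 when replicate 2 of LG week 7 was. Dropping replicate 1 of LG week 5, the bird with the lowest values of its group at LY6E and USO1, gave 39. PBK kept its LG call in each of these fits, with an adjusted p of 0.0398 at most.

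Globin spots were higher in LG at week 7, and 1 of them passed. HBE1, named for an epsilon-type chain of hemoglobin, read -3.15, -3.23, -2.04 and -3.36 in LG at week 5 and 0.64, 1.47 and 0.73 at week 7, where replicate 2 is missing. In HG it read 0.05, -1.04, 0.62 and -1.58 and then -1.41, -1.12, -1.72 and -2.70. The LG birds of week 5 were the lowest group and those of week 7 the highest, while the HG ages overlapped. HBE1 rose by 3.89 in LG (SE 0.66, adjusted p = 0.0247), with an HG step of -1.25 (SE 0.61, unadjusted p = 0.0511). The LG call was lost without replicate 2 or 4 of LG week 5 or replicate 1, 3 or 4 of LG week 7 (adjusted p between 0.0514 and 0.154), with steps of 3.63 to 4.04. The difference between the steps of the lines, -5.14 (SE 0.90), had the smallest p of that comparison and did not pass (adjusted p = 0.0785). It passed when only the 16 arrays were fitted (adjusted p = 0.0176), with array weights (adjusted p = 0.0218) and without HG week 5 replicate 4 (adjusted p = 0.0401). Without any other single array of weeks 5 and 7 its limma adjusted p lay between 0.06 and 0.566, the latter without LG week 7 replicate 3. By the unmoderated model its adjusted p was 0.391.

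The other globin spots had the same directions and did not pass. The study's gene list gives the HBBA spot the name HBE1. A globin cDNA can also bind transcripts of related globin genes, so these spots may share their signal. HBBA read -1.61, -1.41, -1.02 and -1.15 in LG at week 5 and 0.40, -0.81, 1.01 and 0.62 at week 7, a step of 1.60 (adjusted p = 0.142) against -0.67 in HG. HBA1 had LG and HG steps of 1.19 and -0.44, and the spot named for HBA1/HBA2 1.64 and -0.47. LG week 7 replicate 2 was the lowest bird of its group at each of these 3 spots and had no good HBE1 spot. STK10, a lymphocyte-oriented kinase, gave LG values of -2.43, -2.58, -2.06 and -2.93 at week 5 and 0.40, -1.41, 1.30 and 0.63 at week 7 at spot 28.9.5, a step of 2.73 (adjusted p = 0.058), and its other spot had -0.02. The red cell list held 11 spots of 9 genes. In LG 4 were higher and 0 lower at an unadjusted p under 0.05, against 1.64% and 2.43% of all spots. All 4 were globins. The 7 other spots, of CA2, SLC4A1, UROD, FECH and RHCE, had LG steps between -0.13 and 0.20. Whether each of these genes is particular to red cells in this gland was not tested. The median of the list was 0.19 in LG and -0.12 in HG. How far blood left in the glands has a part in these steps was not tested.

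TMCC2, which encodes a transmembrane coiled-coil protein, rose in LG with the globins. At spot 39.7.2 LG birds read -0.29, -0.04, -0.13 and -0.23 at week 5 and 1.15, 1.29 and 1.30 at week 7, with replicate 2 missing, and HG birds lay between -1.13 and -0.21 at week 5 and between -0.44 and -0.26 at week 7. The LG birds of week 7 stood alone, and the step was 1.42 (SE 0.26, adjusted p = 0.037) against 0.19 in HG. At spot 16.5.13 the LG step was 1.73 (SE 0.47, adjusted p = 0.306), with LG week 7 birds at 1.01, -0.22, 1.63 and 1.69. LOXL2, which cross-links collagen, had an LG step of 1.58 (adjusted p = 0.071), and there too replicate 2 read 0.13 where the other LG birds of week 7 read 1.65 to 2.15. Without that array LG had 6 calls, 5 of them higher.

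Immunoglobulin genes were higher in LG at week 7 in all 4 of their spots, without passing. JCHAIN, which joins immunoglobulins into polymers, read -0.74, 0.64, 0.02 and -0.86 in LG at week 5 and 1.48, 0.83, 1.17 and 1.86 at week 7, and stayed between -1.07 and -0.01 in HG at both ages. The LG ages did not overlap, and the step was 1.57 (SE 0.38, adjusted p = 0.156). The 3 spots of IGLL1/IGLL5, named for the light chain, had LG steps of 1.29, 2.03 and 2.197 with HG steps of 0.12, -0.11 and 0.45. BTK, a kinase of B cells, had -0.12 in LG. So 4 of the 5 spots of the B cell and plasma cell list were higher in LG at an unadjusted p under 0.05, against 1.64% of all spots, and 2 of them were so without LG week 5 replicate 3. A spot could join a list by its name in the study's gene list. That list was picked for differences between the lines on these same arrays, so this share is a description. The T cell list had median steps of -0.01 in LG and -0.04 in HG over 3 spots, and the list of macrophage and granulocyte genes 0.01 and 0.04 over 25.

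**Figure D4:**
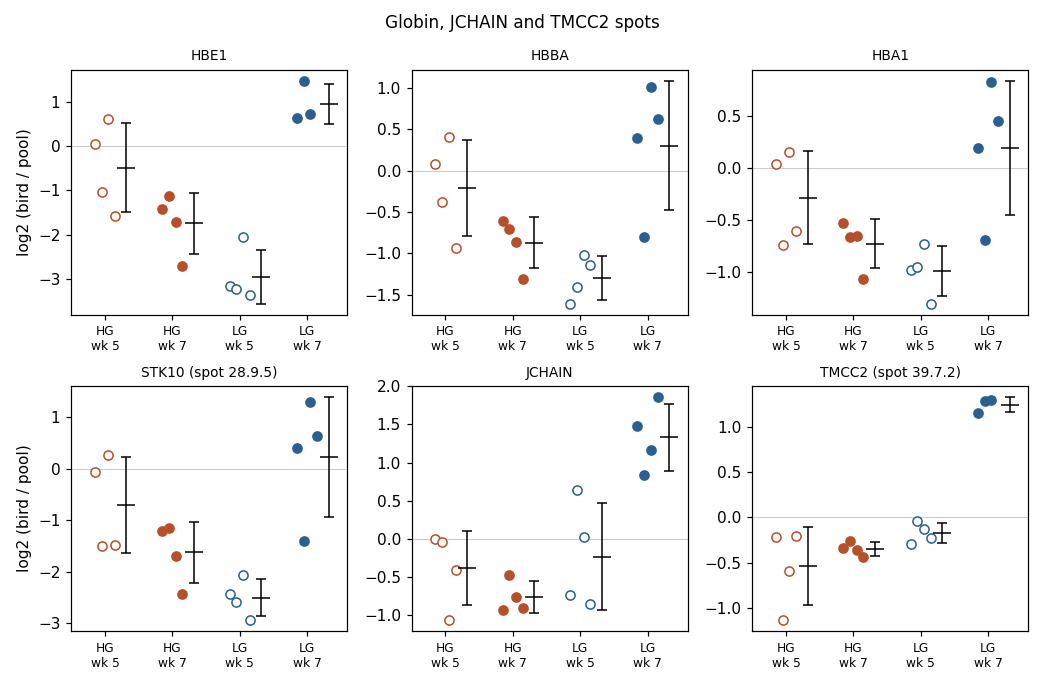
Log2 ratio of bird to pool at globin, STK10, JCHAIN and TMCC2 spots, 1 point per bird, open at week 5 and filled at week 7, HG in orange and LG in blue, with the mean and SD of the birds beside each group; each panel has its own scale. The LG mean is the lowest of the groups at week 5 and the highest at week 7 at HBE1, HBBA, HBA1 and STK10, LG week 7 replicate 2 is the low filled blue point at HBBA, HBA1 and STK10, and HBE1 and TMCC2 lack that bird.

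In HG no spot passed, and the spots nearest to passing are given by value. ID3, an inhibitor of helix-loop-helix transcription factors, read 0.08, 0.92, 0.68 and 0.24 at week 5 and -0.06, -0.72, -0.22 and -0.08 at week 7 at spot 41.11.6, without overlap, a step of -0.75 (SE 0.21, unadjusted p = 0.00132) against -0.38 in LG. Its other spots had HG steps of -0.28 and -0.00. ENPP2, the secreted enzyme autotaxin, read -0.16, -0.06, -0.18 and -0.23 at week 5 and -1.23, -0.95, -0.64 and -0.78 at week 7 at spot 4.6.19, a step of -0.74 (SE 0.23), with -0.29 and -0.48 at its other spots and LG steps of both signs. ARSA, a lysosomal sulfatase, had an HG step of -0.92 and MIER1, a transcriptional regulator, one of -1.18, each over 3 birds at 1 age or more. Upwards, TNFRSF1A, a receptor for tumour necrosis factor, had 0.56, EEF2K, a kinase of elongation factor 2, 0.77, DUSP12, a phosphatase, 0.91, EMC7, of the membrane insertion complex of the endoplasmic reticulum, 0.52 and BROX 0.34. TNFRSF1A, DUSP12, EMC7 and BROX each had another spot with an HG step between -0.11 and 0.13. All HG birds of week 7 lay above those of week 5 at 0.858% of spots and below them at 0.971%, and in LG the shares were 1.30% and 1.66%.

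By p of the difference between the line steps, the first 5 named spots with the lower step in HG were HBE1, STK10, HBBA, MCM3AP and LHFPL5, and the first 5 with the lower step in LG were YWHAZ, DHRS3, STOML1, HECA and C1R. None of these differences passed. MCM3AP, a factor of mRNA export, read -0.13, 0.33, -0.07 and -0.28 in HG at week 5 and -0.52, -0.40, -0.90 and -0.30 at week 7, and -0.56, -0.73, -0.25 and -0.67 in LG at week 5 and -0.21, 0.23, -0.06 and -0.25 at week 7 (spot 11.12.15). The HG birds were lower and the LG birds higher at week 7 without overlap of ages in either line, with a difference of steps of -0.98 (SE 0.23, unadjusted p = 0.000333, adjusted p = 0.9999), and the other 2 MCM3AP spots had steps of -0.14 to -0.00 in either line. YWHAZ, an adaptor protein often used as a reference gene, had steps of 0.20 in HG and -0.59 in LG at spot 29.3.8 (difference 0.79, SE 0.21). C1R, a protease of complement, had 0.15 and -0.47 at spot 36.9.18 and -0.04 and -0.96 at spot 25.15.11. LHFPL5, named for a protein of hair cells, had -0.32 and 0.61 at spot 15.5.1 and -0.32 and 0.54 at its other spot, so both of its spots had the same signs.

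No hormone gene moved measurably between week 5 and week 7. Of the 10 hormone spots 0 passed in any comparison by limma, and 0 had an unadjusted p under 0.05. The mean step of both lines was -0.37 (SE 0.32) at GH spot 7.1.6, the brighter of the GH spots, 0.13 (SE 0.17) at GH spot 43.6.11, whose Cy3 signal was 1.59 to 3.38 times background, and -0.27 (SE 0.26) at LOC420294, called growth hormone in the study's list. At GH spot 7.1.6 the LG birds read -2.01, -1.11, 0.27 and -1.15 at week 5 and -1.61, -2.01, 0.07 and -1.26 at week 7, and the 3 HG birds measured at each age lay between -1.31 and -0.50 and then between -2.11 and -1.08. These ages overlapped in each line, and plus or minus 2 SE the mean step lay between -1.02 and 0.27, so a fall of up to about that bound or a small rise cannot be told from no change. PRL, prolactin, had -0.01 (between -0.49 and 0.47), POMC, the precursor of corticotropin, 0.06 and -0.00 at 2 spots (the wider bounds -0.25 and 0.30), and TSHB, the thyrotropin subunit, 0.14 (between -0.24 and 0.51). LHB, the subunit of luteinizing hormone, had 0.10 (between -0.36 and 0.56) and CGA -0.19 (between -0.82 and 0.44).

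FSHB, the subunit of follicle-stimulating hormone, had the largest mean step of the hormone spots at 0.49 (SE 0.29, between -0.09 and 1.08). Its LG birds read -2.03, -1.26, -1.15 and -0.87 at week 5 and -0.79, 0.41, -1.03 and -1.08 at week 7, and its HG birds -0.18, 0.70, 0.77 and 0.54 and then 1.03, 0.02, 1.20 and 0.73. The ages overlapped in each line, and at week 5 every HG bird lay above every LG bird, while at week 7 the HG bird at 0.02 lay below the LG bird at 0.41.

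The remaining lists are given by their median steps in HG and LG. The 18 spots of pituitary transcription factors had median steps of -0.05 in HG and -0.02 in LG, the 16 spots of hypothalamic and hormone receptors 0.01 and 0.07, and the 15 spots of the gonadotrope and activin pathway -0.05 in each line. Oxidative phosphorylation (49 spots, -0.04 and -0.03), cytosolic ribosomal proteins (62 spots, -0.03 and 0.05), the proteasome and ubiquitin system (66 spots, 0.02 and -0.06), protein folding in the endoplasmic reticulum (39 spots, 0.03 and -0.07) and extracellular matrix (61 spots, -0.01 and -0.03) had medians of similar size. So did the lists of the secretory granule (27 spots, -0.01 and -0.05), endothelium (33 spots, -0.03 and 0.05), glucocorticoid and stress genes (32 spots, -0.03 and 0.03), cholesterol and fatty acid synthesis (54 spots, -0.03 and 0.03), signaling by cAMP, calcium and MAP kinases (50 spots, -0.02 and 0.02), reference genes (24 spots, -0.07 and 0.05) and folliculostellate cells (8 spots, -0.00 and 0.02). Class II antigen presentation (11 spots of 3 genes, among them BLB1, a class II beta chain, and CD74, the invariant chain) had a median of -0.205 in HG, with 9 of 11 steps below 0 against 49.1% of all spots, and of -0.01 in LG. At an unadjusted p under 0.05, 0 of these spots were lower in HG (1.36% of all spots), and CD74 spot 14.1.15 was higher in LG (step 1.02). Its LG birds of week 7 read 0.19, 3.33, 0.10 and 0.36, so that step rested on replicate 2. Another CD74 spot, 35.9.13, had an LG step of 0.00. Over the 44 spots of thyroid hormone genes the median LG step was 0.07, with 2 spots higher in the mean of both lines at an unadjusted p under 0.05, against 1.22% of all spots, TTR, a carrier of thyroid hormone (mean step 0.35, SE 0.14), and a spot of the deiodinase DIO1 (0.30, SE 0.12) whose sister spots went both ways. The clock list (17 spots) had median steps of -0.00 in HG and 0.14 in LG. In LG 2 of its spots were higher and 1 lower at an unadjusted p under 0.05, against 1.64% and 2.43% of all spots. PER2, a repressor of the clock, had an LG step of 0.54, and BHLHE40 had one of -0.55. At BHLHE40 the LG birds of week 7 read -0.27, -0.38, -1.91 and -0.44, so that step rested mostly on replicate 3. The list of glia and posterior pituitary had 3 of 11 spots lower in LG and 3 in the mean of both lines at an unadjusted p under 0.05, against 2.43% and 1.92% of all spots, with a median LG step of 0.04. Of the 3 in LG, GLUL, glutamine synthetase, had an LG step of -1.02 (adjusted p = 0.482) and the myelin gene CNP one of -0.47. GFAP, the intermediate filament of astrocytes, had LG steps of 0.13 and 0.25 at its 2 spots. Marker lists of neurons (9 spots), adipocytes (7 spots) and skeletal muscle (20 spots) had median steps between -0.08 and 0.03 in both lines.

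**Figure D5:**
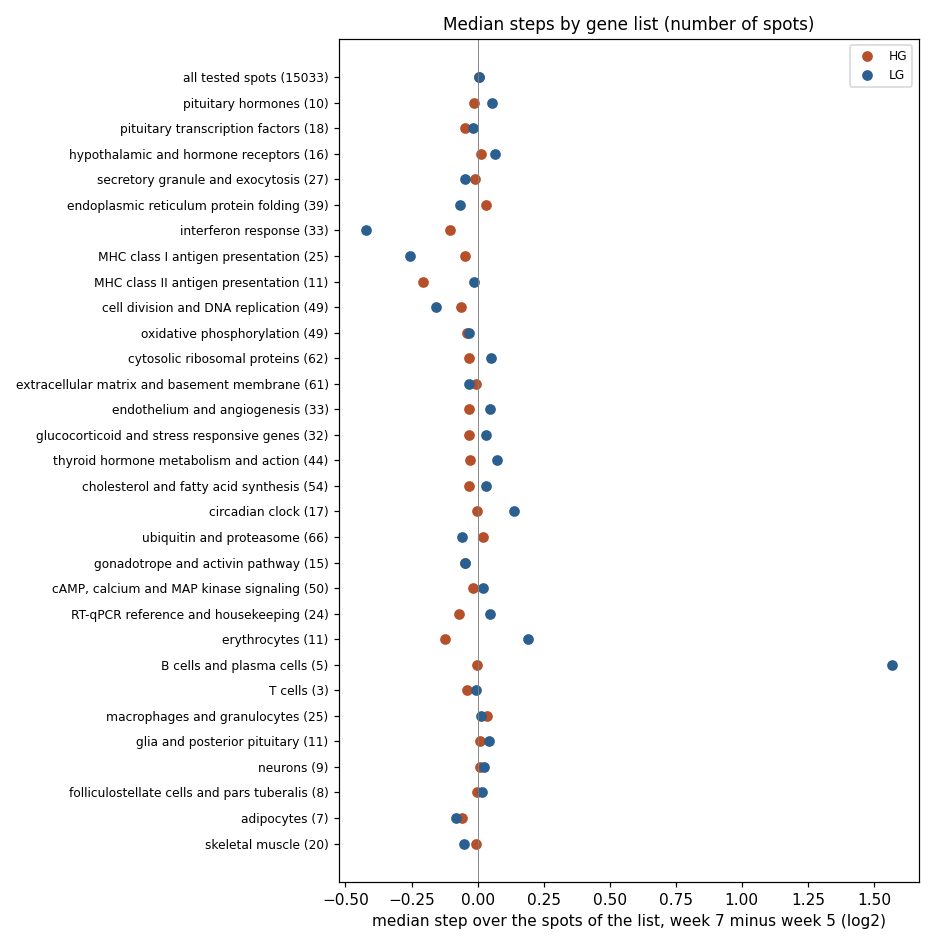
Median step from week 5 to week 7 over the spots of each gene list, HG in orange and LG in blue, on the log2 scale, with the number of tested spots in brackets. Most lists lie near 0 in both lines, with class II presentation at -0.205 in HG, the interferon list at -0.42, class I presentation at -0.25 and cell division at -0.16 in LG, and the 5 spots of B cell and plasma cell genes at 1.57.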

How the data were processed

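Anterior pituitary RNA of single birds was measured on spotted cDNA arrays. The authors read the scans with Spotfinder 2.2.4, and the deposited scanner files hold intensity values per channel with local background and a flag. The authors normalized them in MIDAS 2.18 (signal-to-noise threshold 3.0, lowess per print block with smoothing 0.33, regularization of standard deviations), and the log2 ratios of Cy3 over Cy5 that came out are in the deposited value table. Its columns correlate with the scanner log ratios at 0.738 to 0.937, with column medians of -0.0251 to 0.0159. It was used as an alternative.

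The intensities served here as the start. Background was corrected by normexp (offset 50), log2 ratios were normalized by a loess curve for each array, and values with a bad flag were left out. The offset pulls ratios of dim spots towards 0, and its effect on their steps was not tested. Without background correction the LG step was 3.475 at HBE1 and -1.112 at PBK, against 3.891 and -1.339 in the main fit. limma 3.58.1 was run in R 4.3.3 on 8 group means of line and week over 31 arrays, so weeks 1 and 3 enter only through the spread. HG week 1 replicate 1, whose file header names another week, also enters only there. The steps of the analysis were tested on simulated data.

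Of 19200 spots 10679 carry a gene name, 10601 from the platform annotation and 78 from the study's list, and at 50 spots these sources differ. Genes named are the 15 named spots of smallest p in each direction for the mean of both lines, 5 for each line and for the difference of steps, every hormone spot and up to 4 spots of each other list. Where a count or a call was small, spots outside that rule are named too, chosen after their values were seen. These are the spots of unadjusted p in each line or of opposite sign, and further members of the interferon, class I, cell division and red cell lists. The members and lists were chosen with earlier results of these data known. Spots joined a list by the platform name or by the study's name. The study's gene list was picked for differences between the lines on these same arrays. A count in a list set beside the share of all spots is therefore a description. Alternatives changed the normalization, background, flags, filters, arrays in the fit, variance model, weights, replicate block, threshold and test, and left out each array in turn. The values of 1 gene of the interferon list are not reported here by name.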

Additional observations from a re-analysis of the deposited data

Results flagged for a closer look

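In 13 of 205 groups of 4 birds, over 59 spots with or without a gene name (6.34%), a bird lay far from the other birds of its group by Dixon's test, which chance gives in about 1 in 20 groups. Of these, 3 were on HG week 7 replicate 1, with RRM2 at 0.0596, LHB at -0.17 and POMC (spot 38.5.10) at 0.32. Another 3 were on LG week 7 replicate 2, with CHGB at 2.76, PGM1 at 1.56 and LHB at -0.29. The LG steps of CHGB and PGM1 rest on that bird more than on any other of its group.

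The remaining values lay on single arrays. In LG at week 5 they were CFD (spot 15.4.2) at -0.84 in replicate 1, TXNDC5 (spot 40.7.5) at 0.43 in replicate 2, HBE1 at -2.04 in replicate 3 and CGA at -1.28 in replicate 4. In HG they were OASL (spot 22.1.9) at -0.78 in week 5 replicate 4 and C1R (spot 36.9.18) at -0.35 in week 7 replicate 4. In LG at week 7 the unnamed spot 46.7.11 stood at 0.41 in replicate 4, which overlaps week 5.

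At MCM3AP (spot 11.12.15) each HG bird of week 7 lay below those of week 5 and each LG bird above, with a difference of steps of -0.98 that did not pass (limma adjusted p = 0.9999). Over all tested spots 6 had such a pattern.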

How the results depend on the processing

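The mean of both lines had 1 call, and 2 with the deposited value table (PBK and RRM2) or with spots on at least 1 array per group, 0 with only the 16 arrays, 471 at unadjusted p, and 1 to 2 when each array was left out. HG had 0 calls, 1 with at least 1 array per group, 347 at unadjusted p, and 0 whichever array was left out. LG had 14 calls, 2 higher and 12 lower, and 2 by median centring (1 higher), 41 with the deposited value table (7 higher), where 7774 spots could be tested, 29 without background correction, 2 with all flags, 5 with only the 16 arrays (2 higher), 8 with array weights (3 higher), 1 by the methods' unmoderated model with adjusted p, 612 at unadjusted p, and 1 to 39 when each array was left out. The difference of steps had 0 calls, 1 with at least 1 array per group, with only the 16 arrays or with array weights, 404 at unadjusted p, and 0 to 1 when each array was left out. Spots that passed for the mean of both lines and had the same sign at an unadjusted p under 0.05 in each line numbered 1 (no spot passed adjusted p in HG), and 2 with the deposited values, 0 when only the 16 arrays were fitted, 11 at unadjusted p, and 1 to 2 when each array was left out. The cause of these shifts was not tested.

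Print-tip loess, scaling between arrays, spots on all 16 arrays and a trended robust prior gave 13 to 19 LG calls, and leaving out HG week 1 replicate 1, an alternative chosen after seeing the data, gave 15. No step of a named spot changed sign while called. With the replicate number as a block LG had 18 calls, LOC422513 lost its LG call (adjusted p = 0.0557) and the other counts did not move. In 7 of the 8 pairs of arrays with the same line and number at weeks 5 and 7 the deviations correlated above 0.1 (up to 0.474), and HG replicate 2 stood at -0.00848. Since that pair fell short of 0.1, the numbers were not taken as pairs in the main fit. Even so, 12 of 16 arrays were nearest their own number, and replicate 4 had the most good spots in each group (17505 to 18342). The arrays thus share structure by replicate number, which the labels do not explain and the main p-values leave in the spread. With 4 birds a group and a median SE of 0.19 per line, the smallest LG step that passed was -1.30.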
